A study of Homo sapiens with 5 samples.

Results

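The complement components and regulators considered here were 9 genes taken by symbol, CFB, C3, CFI, CFD, C1R, C1S, SERPING1, CD55 and CD59, of which those listed in all 3 deposited tables were kept. This left 4 genes, C3, CFB, CD55 and CD59, of 10976 genes listed in all 3 tables. CFD was listed only in the tables for the reconstituted cells, and CFI, C1R, C1S and SERPING1 were listed in no table, whether looked up by symbol or by NCBI gene ID. The genes were selected on a measured value, the fold change of CFB in the authors' own comparison of USP28-KO with USP28-Ctrl. The fold changes and p-values of that comparison are not used here, so no value below says whether a gene rose or fell upon deletion or re-expression of USP28.

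RNA was sequenced from HLF, an established human hepatocellular carcinoma line, in 5 conditions with 1 listed sample each. USP28-Ctrl cells carried a control guide RNA (sgCtrl) and USP28-KO cells a guide against the deubiquitinase USP28 (sgUsp28). The other 3 conditions were all USP28-KO cells, transduced with an empty lentiviral vector (pRRL-Ctrl), with wildtype USP28 (USP28-WT, pRRL-Usp28-WT) or with a monomeric allele whose dimer interface is disrupted (USP28-M, pRRL-Usp28-Mono). The labels give no treatment in any condition. By the study's methods, knockout cells were made under puromycin selection and transduced cells under a further antibiotic selection. The study describes its knockout cells as clones, so clonal differences cannot be told apart from the genotype. Each table gives a gene 1 average expression value over all libraries of its fit. The knockout table averages the USP28-Ctrl and USP28-KO libraries, and both tables for the reconstituted cells hold the same average for all 12342 of their genes. Every gene thus had at most 2 values, 1 for each set of libraries. Neither values of single libraries nor the number of libraries are given, so no SD or test can be given.

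Complement is a cascade of plasma proteins that tags and lyses microbes and damaged cells. The classical and lectin pathways and the alternative pathway converge on cleavage of C3, and the terminal components then form a pore in the target membrane. Hepatocytes are the main source of the soluble components, while nucleated cells in general protect themselves with membrane regulators. In the classical pathway C1R and C1S are the proteases of the C1 complex and SERPING1 inhibits them. In the alternative pathway CFB provides the catalytic subunit of the C3 convertase after cleavage by CFD, and CFI inactivates the C3b fragment.

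Sequence upstream of the transcription start is shown for CFB, the component for which the genes were proposed, and for the regulators CD55 and CD59, because these genes had reads in both sets and an entry in the RefSeq promoter table (GRCh38.p14). Of the 9 genes, 6 had such an entry, and for CD59 the start farthest upstream was used. The 250 bases before the start lie at chr6:31945845-31946094 on the plus strand for CFB, chr1:207321428-207321677 on the plus strand for CD55 and chr11:33736480-33736729 on the minus strand for CD59. These are positions on GRCh38, while the reads were aligned to hg19. Capitals mark matches, on either strand, to the TATA box TATAAA, the GC box GGGCGG, the interferon-related GAS motif TTCNNNGAA and the core GAAANNGAA of the interferon-stimulated response element (ISRE). These motifs do not overlap in the windows shown.
CFB: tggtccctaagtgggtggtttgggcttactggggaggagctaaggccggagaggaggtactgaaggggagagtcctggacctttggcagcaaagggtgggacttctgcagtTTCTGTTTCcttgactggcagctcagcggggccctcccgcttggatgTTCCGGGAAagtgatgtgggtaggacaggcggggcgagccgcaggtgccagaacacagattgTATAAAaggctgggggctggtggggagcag
CD55: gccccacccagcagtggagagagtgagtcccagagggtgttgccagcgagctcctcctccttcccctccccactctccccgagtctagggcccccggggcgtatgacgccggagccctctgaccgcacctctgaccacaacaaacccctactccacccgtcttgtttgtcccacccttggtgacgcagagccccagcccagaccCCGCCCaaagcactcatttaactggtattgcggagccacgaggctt
CD59: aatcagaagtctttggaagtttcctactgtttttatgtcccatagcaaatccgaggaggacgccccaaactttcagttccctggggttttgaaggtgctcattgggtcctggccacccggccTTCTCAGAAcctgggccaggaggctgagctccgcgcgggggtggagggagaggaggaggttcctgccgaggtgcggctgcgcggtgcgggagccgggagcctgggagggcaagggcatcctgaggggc

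The CFB window held a TATA box at 30 to 25 bases before the start, a GAS match at 92 to 84 and an ISRE core match, on the opposite strand, at 139 to 131. Over all 35116 promoter windows of this length in the table, 10.7% held the TATA box, 6.57% the GAS letters and 6.88% the ISRE core letters. CD55 had a GC box at 46 to 41 bases before the start, as 42.6% of windows did somewhere, and no other match. In CD59 the only match was to GAS, at 128 to 120 bases. A match describes these letters and was not tested as a binding site.

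CFB was expressed at a low level in both sets of libraries, and C3 at a low level in the knockout set and near the middle of all genes in the reconstitution set. C3, the central component of the cascade, had an authors' average of 3.64 log2 CPM (CPM, read counts scaled to library size, on a log2 scale) in the USP28-Ctrl and USP28-KO libraries and of 5.00 in the reconstitution libraries. CFB had 3.48 log2 CPM in the former and 2.66 in the latter. C3 and CFB were thus close in the first set, where their counting intervals given below overlap. In the second set C3 was well above CFB. Among all genes of the respective table, C3 lay at percentile 15.2 and 51.8 and CFB at percentile 12.9 and 15.9. The tables list different numbers of genes, and ranked among the shared genes alone CFB went from percentile 12.2 to 6.80, the opposite direction, and C3 from 14.4 to 45.9. CFD, the protease that cleaves CFB, had 1.90 log2 CPM in the reconstitution libraries, at percentile 8.41. CFD was not listed in the knockout table, which lists only 3 genes below that level.

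The membrane regulator CD59, which blocks assembly of the terminal pore, was the most abundant of the genes. Its authors' average was 9.44 log2 CPM in the USP28-Ctrl and USP28-KO libraries and 9.56 in the reconstitution libraries, at percentile 98.5 and 98.8 of all genes. CD55, which accelerates the decay of C3 convertases, had 4.39 and 4.46 log2 CPM, at percentile 28.6 and 41.0. Ranked among the shared genes alone, CD55 lay at percentile 27.8 and 33.7. Both regulators had nearly the same average in either set, and both lay above CFB in each. CD59 was also far above C3 in each set, whereas CD55 was above C3 only in the USP28-Ctrl and USP28-KO libraries.

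The spacing of the lowest average values placed about 7690000 reads in all libraries of the knockout table together and about 30460000 in those of the reconstitution tables. CFB then rested on an estimated 85.8 reads (95% Poisson interval 68.6 to 106) in the former and 193 (166 to 222) in the latter. These numbers are summed over conditions and include the prior count that edgeR adds. For C3 these numbers were 95.8 reads (77.6 to 117) and 973 (913 to 1036), and for CD55 161 (137 to 188) and 669 (619 to 721). CFD rested on 114 reads (94.0 to 137). CD59 had about 5359 and 22998 reads. The intervals cover counting error only, not the uncertainty of the estimated totals, of which that of the reconstitution set is the less certain. How the reads were spread over single libraries and conditions was not analysed here.

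Levels of different genes were compared per length, as log2 CPM per kilobase of the longest GENCODE release 29 transcript. On this scale CD59 (7631 bases) had levels of 6.51 and 6.63 in the knockout and reconstitution sets, and CD55 (2892 bases) of 2.85 and 2.92. CFB (2862 bases) had levels of 1.96 and 1.14 per kilobase, and C3 (5263 bases) of 1.24 and 2.60. CFD, with a transcript of 1201 bases, had a level of 1.64 per kilobase in the reconstitution libraries. CD59 was first and CD55 next in both sets. CFB stood above C3 per kilobase in the USP28-Ctrl and USP28-KO libraries, and C3 stood above CFD and CFB in the reconstitution libraries. With the median length of all transcripts of the gene instead, C3 was above CFB, and above CD55 too, in both sets. These medians were 580.5 bases for C3, 766 for CFB and 1501.5 for CD55, far below the longest transcripts, and stand for no particular isoform. The order of C3, CFB and CD55 per length therefore depended on the transcript length used. The tables do not show which isoforms were expressed.

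**Figure D1:**
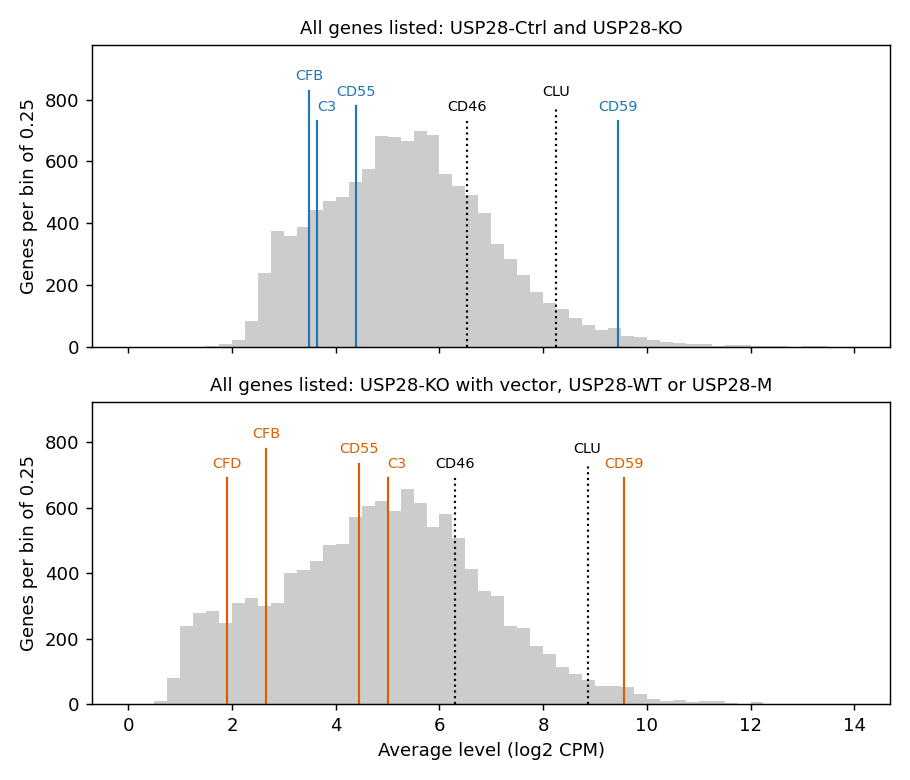
Number of genes per bin of average level (log2 CPM) for all 11102 genes of the knockout table (top) and all 12342 genes of the reconstitution tables (bottom), with solid lines at the complement genes taken by symbol and dotted lines at the regulators CD46 and CLU. CFB lies in the lower tail of both, at 3.48 and 2.66, CD59 in the upper tail, and C3 moves from 3.64 in the top panel to 5.00 in the bottom one.

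The averages of both sets were then set side by side. These sets were normalized separately and share no condition. They differ in vector, antibiotic selection and genotype, which cannot be told apart. The labels do not say whether they were also separate experiments. The differences are therefore descriptions without a test. The average of C3 was higher in the reconstitution libraries by 1.36 on the log2 scale (2.56-fold), at percentile 99.6 of the differences of all 10976 shared genes. The average of CFB was lower by 0.82 on the log2 scale (1.76-fold), at percentile 13.3. C3 and CFB, which act together in the alternative pathway convertase, thus differed in opposite directions. The differences of CD55 and CD59 were 0.07 and 0.12 on the log2 scale. Over all shared genes the median difference was -0.12, and the middle 50% of genes lay between -0.50 and 0.20. Of the 4 complement genes, 1 (C3) was higher by at least 1 on the log2 scale, as were 1.52% of all shared genes, and 0 were lower by at least 1, as were 9.02% of all shared genes. Of the 990 shared genes lower by at least 1, 634 had an average of at least 3 log2 CPM in both sets. CFB, at 2.66 log2 CPM in the reconstitution libraries, was below that level. Relative to the median of all shared genes, the difference of C3 was 1.48 and that of CFB -0.70. Counting error alone gave the difference a 95% half-width of about 0.31 for C3 and 0.38 for CFB. The spread between replicates is unknown.

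Few genes of the wider complement system were listed. Of 45 other complement genes, 4 were listed in the knockout table and 5 in the reconstitution tables. Of all genes, 11102 were listed in the former and 12342 in the latter, and 10976 in both. The reconstitution set also rested on more reads, about 30460000 against 7690000. The share of all annotated genes that was listed was not computed. Whether complement genes were listed less often than other genes was therefore not tested. Among 7 other genes of the classical pathway only C4A and C4B were listed, which encode near-identical forms of C4, the precursor of the classical and lectin convertases. C4A had 2.76 and 2.22 log2 CPM and C4B 2.70 and 2.19. Reads from these copies can be split between them by the counting, so neither level is certain. Of 8 lectin pathway genes, the protease MASP2 was listed in the reconstitution tables only, with 1.07 log2 CPM. The stabilizer CFP, all 7 terminal components and all 8 receptors searched were in no table. CLU, a secreted chaperone that inhibits the terminal complex, was the only one listed of 12 other soluble regulators. It had 8.24 and 8.86 log2 CPM, at percentile 95.04 and 97.43. Per kilobase of its longest transcript its level was 6.62 and 7.23, above that of CD59, but with median transcript lengths (8.68 and 9.30) it was below CD59. CD46, a membrane cofactor for CFI, had 6.54 and 6.30 log2 CPM, and the other membrane regulator searched, CR1, was not listed. Of the membrane regulators, CD59, CD46 and CD55 were thus listed and CR1 was not. Of the substrates of the cascade, C3, C4A, C4B and CFB were listed, and C2 and C5 were not. A gene that is not listed may be below the authors' filter, which is not given in the sources used here.

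In the RefSeq annotation C1S, C1R and C1RL are consecutive protein-coding genes on chromosome 12, and none of them was listed. CD55 lies on chromosome 1 between C4BPA and CR2, and only CD55 of these genes was listed. CFB on chromosome 6 lies between ZBTB12 and NELFE, both listed in all 3 tables. CFI, in no table, also lies between listed genes, PLA2G12A and GAR1. LPCAT3 beside C1S was listed, as was UBE2L6 on one side of SERPING1, while YPEL4 on the other side was not. C3, CFD and CD59 each lie between a listed and an unlisted gene.

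USP28 itself, the targeted gene, had an average of 5.15 log2 CPM in the USP28-Ctrl and USP28-KO libraries and 9.79 in the reconstitution libraries. An average over conditions cannot show the loss of USP28 in the USP28-KO cells, so this does not check the labels of single samples. Of 9 hepatocyte markers only FGB was listed in the knockout table, and FGB and SERPINA1 in the reconstitution tables. Albumin (ALB), APOA1, APOB, TTR, TF, HNF4A and AFP were in no table. FGB, a fibrinogen chain, had 6.003 and 3.20 log2 CPM in the knockout and reconstitution sets, and SERPINA1 had 1.88 log2 CPM in the latter, so the hepatocyte markers were in part present. KRT8 and KRT18 and all 4 mesenchymal markers (VIM, FN1, COL1A1 and CDH2) were listed in both sets, whereas EPCAM and CDH1 were not. Of the leukocyte and endothelial markers, CD14 was listed with 0.93 log2 CPM in the reconstitution libraries, and PTPRC, LYZ, CSF1R, PECAM1 and VWF were in no table. In RNA from whole cultures, fewer cells with a transcript and less transcript per cell cannot be told apart.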

How the data were processed

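Total RNA of HLF cells in 5 conditions was sequenced. Per the submitters' processing notes, the authors used bcl2fastq 2.20, STAR 2.5.4 with hg19, and edgeR 3.26.8. Counting, annotation, the filter on low genes and the number of libraries are not given in the sources used here. The authors deposited 3 tables of comparisons, each with an average log2 CPM per gene, which was the value used. The header of the knockout table is shifted by 1 column and was read accordingly. The remaining columns hold the authors' own fold changes, F statistics and p-values and were not used. Since no counts were found, the count model foreseen was not fitted. There were 0 unmatched columns of per-sample values.

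Genes were matched by symbol and NCBI gene ID. A total of 180 genes of the knockout table and 308 of the reconstitution tables had no symbol. Named genes were the 9 complement genes, all listed genes of a complement list and of the marker lists, and USP28. The genes and lists were chosen with earlier results of these data known. Depth was estimated from the spacing of the 1100 lowest average CPM values. Of these, 96.8% in the knockout table and 68.5% in the reconstitution tables lay within 0.1 reads of a whole number, so the latter total is less certain. Alternatives changed the transcript length, the genes ranked, the centring and a filter at an average log2 CPM of 3. Scripts ran under Python 3.11.15 with pandas 2.3.3, numpy 2.4.6, matplotlib 3.10.9 and scipy 1.17.1.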

Additional observations from a re-analysis of the deposited data

How the results depend on the processing

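With the median transcript length in place of the longest, the levels in log2 CPM per kilobase in the knockout and reconstitution sets were 3.86 and 3.05 for CFB, 4.42 and 5.78 for C3, 3.80 and 3.87 for CD55, and 9.86 and 9.98 for CD59. Ranked among genes listed in all 3 tables, the percentiles in the reconstitution set were 6.80 for CFB, 45.9 for C3, 33.7 for CD55 and 98.7 for CD59. Centring on the median of all shared genes moved the difference of CD59 to 0.24 and the number of genes higher by at least 1 on the log2 scale from 167 to 264. With a minimum of 3 log2 CPM in both sets, which 9767 of 10976 shared genes met, the median difference was -0.079. Under this minimum 634 genes, instead of 990, were lower by at least 1. CFB, at 2.66 log2 CPM in the reconstitution set, did not meet it. The other 10 values under these alternatives moved by less than their counting error or, for counts of genes, by less than 1.5 times. Removal of edgeR's prior count from the reads was not run, because it needs the number of libraries. No paired analysis was possible because the tables hold 1 average per gene and set and no test was made. Leaving out a library was likewise not possible. Few reads limit CFB, CFD and, in the knockout set, C3.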

Other observations

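FGB and COL1A1 differed more between the averages of both sets than C3, CFB, CD55 and CD59 did. FGB, the beta chain of fibrinogen and like complement a liver-secreted plasma protein, had an average of 6.003 log2 CPM in the USP28-Ctrl and USP28-KO libraries and 3.20 in the reconstitution libraries. This difference of -2.80 lay at percentile 0.219 of all shared genes. The averages of the matrix genes COL1A1 (4.47 and 2.84 log2 CPM) and FN1 (6.32 and 5.20) were also lower in the reconstitution libraries, whereas that of the mesenchymal filament gene VIM was 11.71 and 11.69. The other mesenchymal marker, CDH2, went the other way, with 7.72 and 8.06 log2 CPM. The epithelial markers KRT8 (11.18 and 12.02) and KRT18 (10.66 and 11.21) were also higher in the reconstitution libraries. FGB, COL1A1, FN1 and VIM were singled out from the fixed marker lists after their values were seen. No test was possible, and vector, antibiotic selection and genotype cannot be told apart.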
